A study of Mus musculus with 6 samples.

Results

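FGF8-pretreated immortalized brown preadipocytes were followed from the preadipocyte stage into early differentiation by comparing 2 RNA-seq libraries. The first, FGF8_D0, was taken at the end of 48 h of treatment with 5.5 nM FGF8. The second, FGF8_D3, was taken after FGF8 had been withdrawn and the cells had received 2 days of induction medium and 1 day of differentiation medium. Of 26264 listed genes, the 13013 whose mean over these 2 libraries reached 20 normalized counts were compared. A normalized count is the deposited read count divided by a size factor for the library, the median of its ratios to the average library.

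The series holds 6 libraries of mouse cells with 1 library per condition. Untreated cells and FGF8-pretreated cells were each collected at D0, D3 and a later point labelled D7, which was 9 days after the end of pretreatment by the study's description. The titles name immortalized brown preadipocytes or adipocytes for all libraries. By the study's methods these were wild-type C57BL/6N stromal vascular cells of interscapular brown adipose tissue of adult mice, immortalized with SV40 large T antigen. The growth protocol in the labels instead describes primary white preadipocytes, and the titles were followed here. The labels do not say whether the libraries came from 1 culture or several. The induction medium held insulin, T3, IBMX, dexamethasone, indomethacin and rosiglitazone, of which insulin, T3 and rosiglitazone were kept in the differentiation medium. Neither arm received FGF8 after D0. Loss of FGF8, the induction mixture and time in culture changed together between FGF8_D0 and FGF8_D3 and cannot be told apart. The untreated pair (untreated_D0 and untreated_D3) shares no library with the FGF8 pair and received the same media, so its values are given beside those of the FGF8 pair. With 1 library on each side there was no replicate check and no test between FGF8_D3 and FGF8_D0, and each interval given here comes from the 2 raw counts by the exact Clopper-Pearson method, which covers counting error only. A log2 difference was taken after adding 1 to each normalized count, and where 1 library had 0 counts the fold is a lower bound computed against 3 counts in that library. The 6 libraries held 16403254 to 38551551 counts, with 18083221 in FGF8_D0 and 38031701 in FGF8_D3.

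FGF8 binds FGF receptor tyrosine kinases and activates the RAS-ERK cascade. ERK signalling raises ETS, EGR and AP-1 transcription factors, ligands of the EGF family and a set of feedback inhibitors (Sprouty, SPRED and dual-specificity phosphatase proteins) that dampen the same cascade. Adipogenic induction works through other routes. Dexamethasone acts on the glucocorticoid receptor, IBMX raises cAMP, and rosiglitazone activates PPARG, which together with C/EBP factors turns on genes for fatty acid uptake, lipid droplets and lipolysis. In brown adipocytes the same factors, with coactivators such as PGC-1alpha, also raise mitochondrial genes and uncoupling protein 1 (UCP1), which dissipates the proton gradient as heat.

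Both day 0 libraries stood apart from the 4 later libraries in genes that do not belong to adipogenesis. Of 77 cytosolic ribosomal protein genes, 26 (33.8%) differed at least 2-fold between FGF8_D3 and FGF8_D0, with log2 differences from -2.59 to 9.30. The same number, 26 of 77, differed in the untreated pair, with log2 differences from -2.38 to 8.74. None of the 77 differed 2-fold between the late library and the D3 library of the FGF8 arm, or between the arms at D3, and 1 of 77 did between the arms at D0. For example, Rpl29 was listed at 6.40 normalized counts in FGF8_D0 and 7.34 in untreated_D0 but at 3091 to 4650.3 in the 4 later libraries. Conversely, Rps3 was at 35098 and 28937 in the day 0 libraries and between 5014 and 5843 later. Of 62 replication-type histone genes, 23 averaged 20 normalized counts or more over the series, and all 23 were at least 2-fold higher at D3 in both arms. Their summed level was 177 in FGF8_D0 and 222 in untreated_D0, against 2910 to 7662 in the later libraries.

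Several single genes moved in the same way in both arms. The imprinted RNA H19 fell from 6807 to 16.1 normalized counts in the FGF8 pair and from 13433 to 43.3 in the untreated pair. Xist was at 7473 and 7.02 in the FGF8 pair and at 3716 and 8.91 in the untreated pair, while the Y-linked gene Ddx3y stayed between 2507 and 3889.9 in all 6 libraries. The interferon-inducible p200 gene Ifi202b was at 7311 and 15439 in the day 0 libraries and at 0.702 or 0 later. The positional gene Hoxa9 ran the other way, from 7.68 to 475 in the FGF8 pair and from 5.88 to 206 in the untreated pair. Ddx3y and Hoxa9 were named after their values were seen. The part of these library differences in any D3 to D0 change was not tested, and in these data they cannot be told apart from the day. No comparison of D3 with D0 can be made without the day 0 libraries. In the FGF8 change minus the untreated change, the 77 ribosomal protein genes lay between -0.74 and 0.83 on the log2 scale, and 0 of 77 passed 2-fold, while 7 of 23 histone genes did (30.4%, against 21.2% of all genes). Genes with near-identical copies (ribosomal protein genes, Gapdh, histone genes) are uncertain, since the counting could have split their reads.

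**Figure D1:**
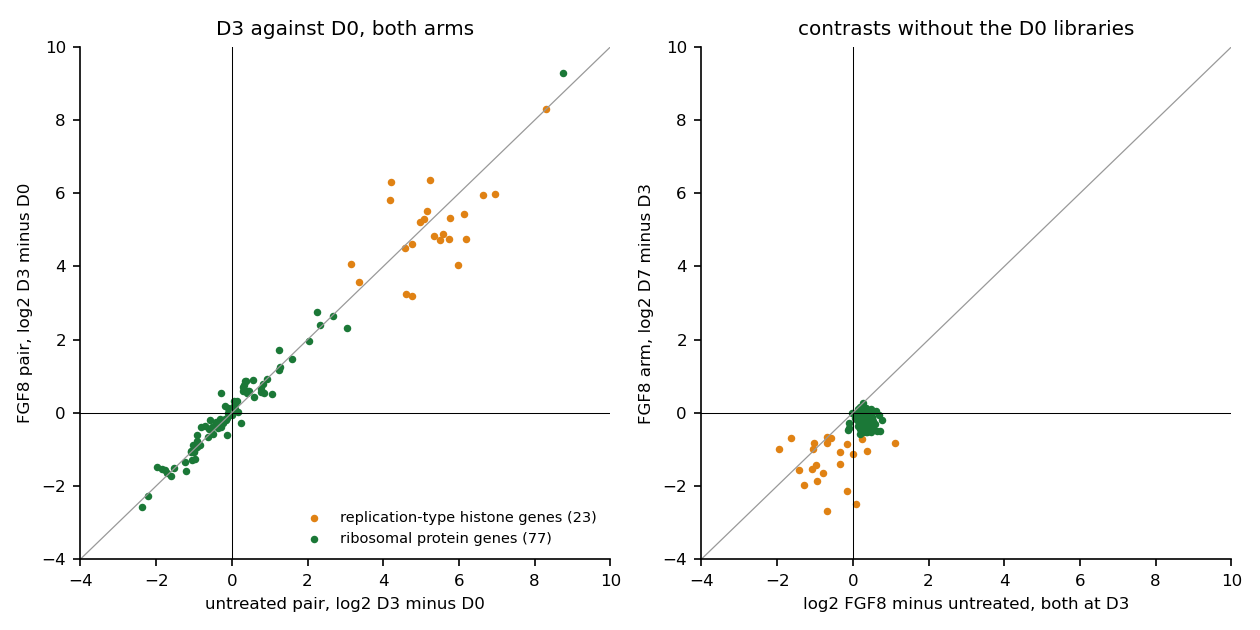
Left: log2 difference between D3 and D0 in the FGF8 pair (vertical) and the untreated pair (horizontal) for 77 ribosomal protein genes and 23 replication-type histone genes, each point 1 gene and the line equality. Right: the same genes in 2 contrasts without day 0 libraries, late minus D3 in the FGF8 arm (vertical) and FGF8 minus untreated at D3 (horizontal). The ribosomal protein genes run from -2.59 to 9.30 near the line on the left and gather around 0 on the right.

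The cells were checked against their labels. The preadipocyte markers Pdgfra and Pdgfrb stood at 9679.8 and 3314 normalized counts in FGF8_D0. The general adipocyte marker Adipoq and the brown adipocyte marker Cidea stood at 0. In FGF8_D3, Adipoq stood at 33237 and Cidea at 416. Other markers were already present in FGF8_D0, among them Fabp4 and Pparg of adipocytes in general and Ucp1, Prdm16, Dio2 and Cox7a1 of brown adipocytes (values below). Of these, Dio2 fell at D3, with a log2 change of -2.17. The brown lineage marker Zic1 fell too, with log2 changes of -7.1 in the FGF8 pair and -7.2 in the untreated pair. Of the preadipocyte markers, Pdgfra and Pdgfrb lay within 2-fold at D3 (log2 changes -0.73 and -0.91), as did Ly6a (0.46). Cd34 and Dlk1 fell, with log2 changes of -6.38 and -3.29. Macrophage markers (14 genes) summed to 453 normalized counts in FGF8_D0 and 368 in FGF8_D3, endothelial markers (10) to 140 and 61.8, skeletal muscle markers (10) to 38.4 and 237, mural cell markers (7) to 1147 and 3880, and Schwann and mesothelial markers (8) to 219 and 449. In untreated_D0 and untreated_D3 the sums, in the same order, were 442 and 630, 1673 and 382, 38.2 and 132, 762 and 4028, and 433 and 381. The endothelial sum was thus higher in untreated_D0 than in FGF8_D0. Of the macrophage markers, Adgre1, Tyrobp and Cd163 were at 0 in both libraries, and of the 3 that passed the level filter 1 was at least 2-fold higher and 1 lower. Of the endothelial markers, Tie1 and Emcn were at 0, and both that passed were lower. Of the mural markers, Kcnj8 and Abcc9 were at 0, and 4 of the 5 that passed were at least 2-fold higher, in the untreated pair as well. These were Cspg4, at 713 at D0 and 1841 at D3, Mcam, at 283 at D0 and 922 at D3, Notch3, at 113 at D0 and 865 at D3, and Myh11, at 21.8 at D0 and 226 at D3. Of the skeletal muscle markers, Myod1, Myf5, Mymk, Ckm and Myh3 were at 0, while both that passed were higher: Des stood at 8.96 at D0 and 184 at D3 and Acta1 at 0 at D0 and 40.7 at D3. Of the Schwann and mesothelial markers, Upk3b stood at 0 at D0 and 1.40 at D3 and Msln at 32.0 at D0 and 0 at D3, and 2 of the 3 that passed were higher, S100b with a log2 change of 3.27 and Krt19 with 2.59. Their part in the results was not tested. In these bulk libraries a lower share of cells that express a gene and less RNA per cell cannot be told apart.

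Nearly equal numbers of genes went up and down between FGF8_D0 and FGF8_D3. Of the 13013 genes, 3139 (24.1%) were at least 2-fold higher at D3 and 2869 (22%) at least 2-fold lower. At least 4-fold, 1622 (12.5%) were higher and 1236 (9.5%) lower. The median log2 difference over all genes was -0.04, and single genes ran from -12.07 to 17.40. Of the genes past 2-fold, 52.2% were higher at D3, and this share was 43.5% when libraries were scaled to their total counts, which moved the median of all genes by -0.21. In the untreated pair, 2549 of 13087 genes (19.5%) were at least 2-fold higher and 2023 (15.5%) at least 2-fold lower. At least 4-fold, 1146 (8.76%) were higher and 668 (5.1%) lower there.

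A gene was said to switch off when it held at least 100 normalized counts in FGF8_D0 and under 10 in FGF8_D3, and to switch on in the reverse case. By this rule 139 genes (1.07%) switched off and 229 (1.76%) switched on. In the untreated pair the 229 genes that switched on had a median log2 change of 5.86, against 7.13 in the FGF8 pair, and 225 of them were at least 2-fold higher there. The 139 genes that switched off had a median of -3.37 in the untreated pair, against -5.80 in the FGF8 pair. Of these 139, 122 were at least 2-fold lower in the untreated pair, 13 lay within 2-fold and 4 were at least 2-fold higher. The genes that went down were shared less fully between the arms. Of the 1236 genes that fell at least 4-fold in the FGF8 pair, 924 were at least 2-fold lower in the untreated pair, 291 lay within 2-fold and 21 were at least 2-fold higher, with a median of -1.74 against -3.07. Of the 1622 genes that went up at least 4-fold, 1464 were at least 2-fold higher in the untreated pair, 148 lay within 2-fold and 10 were at least 2-fold lower, with a median of 2.35 against 3.18. Whether the off side and the on side differed in this respect was not tested. Among 12689 genes that passed the level filter in both pairs, 32 dropped 2-fold or more in the FGF8 pair but went up 2-fold or more in the untreated pair, and 22 showed the reverse.

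**Figure D2:**
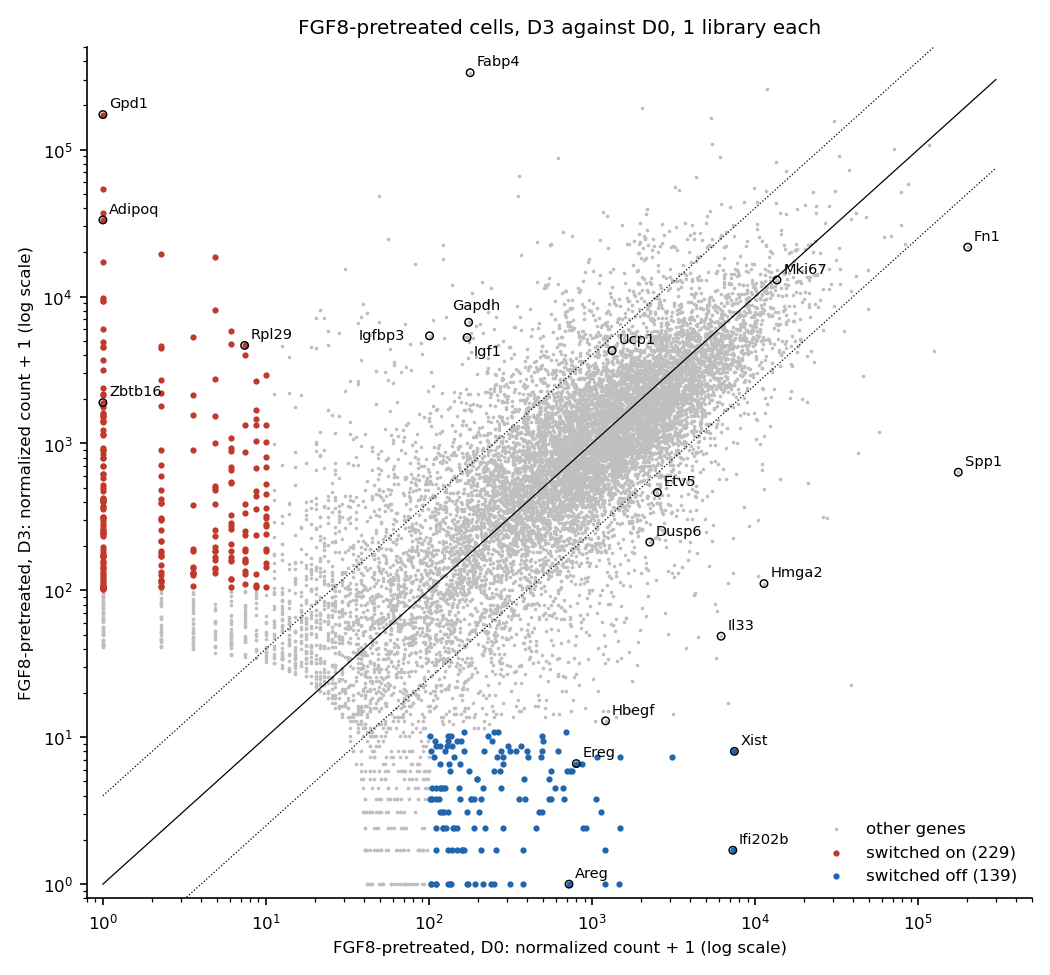
Normalized counts of the 13013 genes in FGF8_D0 (horizontal) and FGF8_D3 (vertical), 1 point per gene, both axes logarithmic after adding 1, with a solid line at equality and dotted lines at 4-fold. The 229 genes that switched on (red) include Gpd1 and Adipoq, at 0 in FGF8_D0 on the left edge, and the 139 that switched off (blue) include Areg, at 0 in FGF8_D3 on the bottom edge.

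Several ligands of the EGF family were far lower at D3. These secreted proteins bind ERBB receptors and themselves activate ERK. Areg (amphiregulin) stood at 722 normalized counts in FGF8_D0 and at 0 in FGF8_D3, at least 343-fold lower, against 5.88 and 1.27 in the untreated pair. Ereg (epiregulin) went from 800.1 to 5.62, a 142-fold fall, whereas untreated cells held 54.3 and 47.1. Hbegf (heparin-binding EGF-like growth factor) went from 1211 to 11.9 with FGF8 and from 165 to 24.2 without. In these 3 genes FGF8_D0 was the highest of the 6 libraries, and FGF8_D3 lay at or below untreated_D3. Btc (betacellulin) was lower at D3 in both arms, with log2 changes of -4.48 and -3.62. Tgfa and Nrg1, ligands of the same family, lay within 2-fold in the FGF8 pair, with log2 changes of 0.23 and -0.18, against 3.02 and -2.15 in the untreated pair.

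Of 17 growth factor ligands of the list that passed the filter (of 19, the EGF family included), 13 were at least 2-fold lower at D3, 1 was at least 2-fold higher and 3 lay within 2-fold, with a median log2 change of -2.90 (range -9.50 to 1.67). The median of the same 17 genes in the untreated pair was -1.31, and each untreated median below is likewise over the genes that passed in the FGF8 pair. Bdnf (a neurotrophin) fell from 1431 to 32.3 normalized counts, with a log2 change of -1.64 in untreated cells. Inhba (the activin A subunit, a TGF-beta family ligand) fell from 1965 to 52.6. Fgf7, an FGF made by stromal cells, fell from 4095 to 492, and the cytokine gene Lif fell by 2.90 on the log2 scale. In untreated cells the log2 changes were -1.66 for Inhba, -1.84 for Fgf7 and -1.31 for Lif. Vegfa, the endothelial growth factor, was the member past 2-fold upward, from 4102 to 13094, with a log2 change of 2.91 in untreated cells. Csf1, the macrophage growth factor, fell from 12687 to 4468 in the FGF8 pair but had a log2 change of 0.40 in the untreated pair.

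Feedback inhibitors of the ERK cascade did not move as 1 block. Of 12 members, 6 were at least 2-fold lower at D3, 1 was higher and 5 lay within 2-fold, with a median of -0.84 against -0.08 in the untreated pair. Dusp6, the phosphatase that inactivates ERK in the cytoplasm, fell from 2261 to 212 normalized counts, while untreated cells held 149.8 at D0 and 177 at D3. Its log2 change in the FGF8 pair was -3.41 (95% interval -3.60 to -3.24). Spred3, an inhibitor of RAF activation, fell from 671 to 62.5 against a log2 change of -0.31 without FGF8. At D3 Dusp6 stood within 2-fold of untreated_D3, and Spred3 was lower there than the 150.2 of untreated_D3. Spry2 and Spry1, Sprouty inhibitors of receptor tyrosine kinase signalling, had log2 changes of -2.50 and -2.39 in the FGF8 pair and of -1.85 and -1.92 in the untreated pair. Spry4 differed from them: it held 1060.0 normalized counts in FGF8_D0 and 1192 in FGF8_D3, while it went from 60.2 to 840.0 in untreated cells. Dusp4, a nuclear phosphatase of ERK, went from 1045 to 2530.5 in the FGF8 pair, and its log2 change in the untreated pair was 3.82.

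Transcription factors downstream of ERK showed a similar mixture. Of 20 members, 10 were at least 2-fold lower at D3, 2 were higher and 8 lay within 2-fold, with a median of -0.90 against 0.21 in the untreated pair. The PEA3-family ETS factors fell together. Etv4 stood at 1763 in FGF8_D0, 23.2 in FGF8_D3, 82.3 in untreated_D0 and 48.4 in untreated_D3. Etv5 stood at 2518 in FGF8_D0, 463 in FGF8_D3, 288 in untreated_D0 and 333 in untreated_D3. Etv1 fell by 1.75 on the log2 scale, and the immediate early factors Egr1 and Egr3 had log2 changes of -2.24 and -2.28. Egr2, which also acts early in adipogenesis, went up instead, from 376 to 1073, with a log2 change of 3.27 in untreated cells. Fos, the AP-1 subunit, had a log2 change of 1.04, and Myc, the growth regulator, one of 0.70.

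The 250 bases before the start of 5 genes are shown, chosen with their values known, as those of 2 ligands, an ETS factor, a feedback inhibitor and the gene Il33 described next. Starts are those of the canonical transcripts in the GENCODE annotation of GRCm39. Capitals mark matches, on either strand, to the AP-1 letters TGANTCA, the cAMP response element (CRE) TGACGTCA, the ETS letters CCGGAAG, the CCAAT box CCAAT, the C/EBP letters TTGCNNAA and the TATA box TATAAA. Areg lies at chr5:91287201-91287450, plus strand, Ereg at chr5:91221907-91222156, plus strand, Etv5 at chr16:22258484-22258733, minus strand, Dusp6 at chr10:99098818-99099067, plus strand and Il33 at chr19:29902233-29902482, plus strand, and each sequence reads 5′ to 3′ toward the gene:
Areg: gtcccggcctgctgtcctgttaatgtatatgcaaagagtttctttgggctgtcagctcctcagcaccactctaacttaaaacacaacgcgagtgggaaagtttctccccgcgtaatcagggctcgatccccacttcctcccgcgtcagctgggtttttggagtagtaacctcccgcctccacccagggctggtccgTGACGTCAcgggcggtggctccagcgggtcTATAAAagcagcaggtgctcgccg
Ereg: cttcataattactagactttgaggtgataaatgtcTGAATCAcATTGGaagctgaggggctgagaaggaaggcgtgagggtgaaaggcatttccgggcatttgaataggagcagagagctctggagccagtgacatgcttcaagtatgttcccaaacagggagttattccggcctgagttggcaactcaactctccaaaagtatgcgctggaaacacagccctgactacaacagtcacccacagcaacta
Etv5: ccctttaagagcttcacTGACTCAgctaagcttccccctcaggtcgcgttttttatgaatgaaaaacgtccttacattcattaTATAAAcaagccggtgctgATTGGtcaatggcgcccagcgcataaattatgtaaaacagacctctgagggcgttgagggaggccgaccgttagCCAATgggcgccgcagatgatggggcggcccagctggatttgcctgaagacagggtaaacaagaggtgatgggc
Dusp6: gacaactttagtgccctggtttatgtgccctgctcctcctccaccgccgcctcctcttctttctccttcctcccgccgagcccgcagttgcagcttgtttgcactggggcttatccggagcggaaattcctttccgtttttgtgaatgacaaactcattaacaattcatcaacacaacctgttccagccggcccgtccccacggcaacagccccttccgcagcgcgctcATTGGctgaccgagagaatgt
Il33: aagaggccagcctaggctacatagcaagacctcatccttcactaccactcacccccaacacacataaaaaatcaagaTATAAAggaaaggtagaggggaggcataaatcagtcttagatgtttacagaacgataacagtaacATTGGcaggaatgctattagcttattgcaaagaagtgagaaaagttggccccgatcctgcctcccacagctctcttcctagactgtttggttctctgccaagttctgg
Areg held a CRE 54 bases and a TATA box 24 bases before its start, Ereg an AP-1 match at 215 and a CCAAT box at 207, and Etv5 an AP-1 match at 233, CCAAT boxes at 148 and 74 and a TATA box at 167. Dusp6 held a CCAAT box at 21, and Il33 one at 108 with a TATA box at 173. None of the 5 windows held the ETS or C/EBP letters, which says only that these letters are not in the windows. Over all 12655 genes of the pair with 1 annotated canonical start, 4.64% of windows held the AP-1 letters, 2.12% the CRE, 10.1% the ETS letters, 36.3% a CCAAT box, 7.89% the C/EBP letters and 7.13% the TATA box. Among 138 genes that switched off, the shares were 8.70%, 2.90%, 5.07%, 30.4%, 11.6% and 7.25%.

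Il33 gave the widest gap between the arms among genes averaging 100 normalized counts or more over the 4 libraries of D0 and D3. This gene encodes an alarmin cytokine of stromal cells. It stood at 6194 normalized counts in FGF8_D0, 47.7 in FGF8_D3 and 26.8 in the late FGF8 library, against 88.1, 389 and 617 in the untreated libraries at the same points. It thus fell in the FGF8 pair and went up in the untreated pair. Il1rl1, which encodes the receptor for IL-33, fell from 3124 to 13.3 in the FGF8 pair and from 3277 to 95.5 in the untreated pair.

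Spp1 encodes osteopontin, a secreted integrin ligand. The 6 values were 176491, 636 and 175 normalized counts at the 3 points in the FGF8 arm and 1714, 300.4 and 271 in the untreated arm. FGF8_D0 stood far above the other 5 libraries, and the log2 change was -8.11 (95% interval -8.21 to -8.02). Sema7a, a membrane-anchored semaphorin, fell from 5792 to 33.7, with a log2 change of -0.73 in untreated cells. Hmga2, a chromatin protein of proliferating mesenchymal cells, fell from 11345 to 110.2, against 921 and 259.6 without FGF8. Hhip, a decoy receptor for hedgehog ligands, fell from 1253 to 14.0 with a log2 change of -0.40 in the untreated pair. Bmpr1b, a BMP receptor, stood at 378 in FGF8_D0 and 0 in FGF8_D3, at least 179-fold lower, against 119 and 30.5. The HMGA and oncofetal RNA-binding protein list, to which Hmga2 belongs, held 2 higher and 2 lower of the 5 genes that passed (of 7). Cd53, a tetraspanin known from leukocytes, was at 675 and 2.81, against 19.1 and 6.36, in libraries where macrophage markers summed to 453 and 368.

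**Figure D3:**
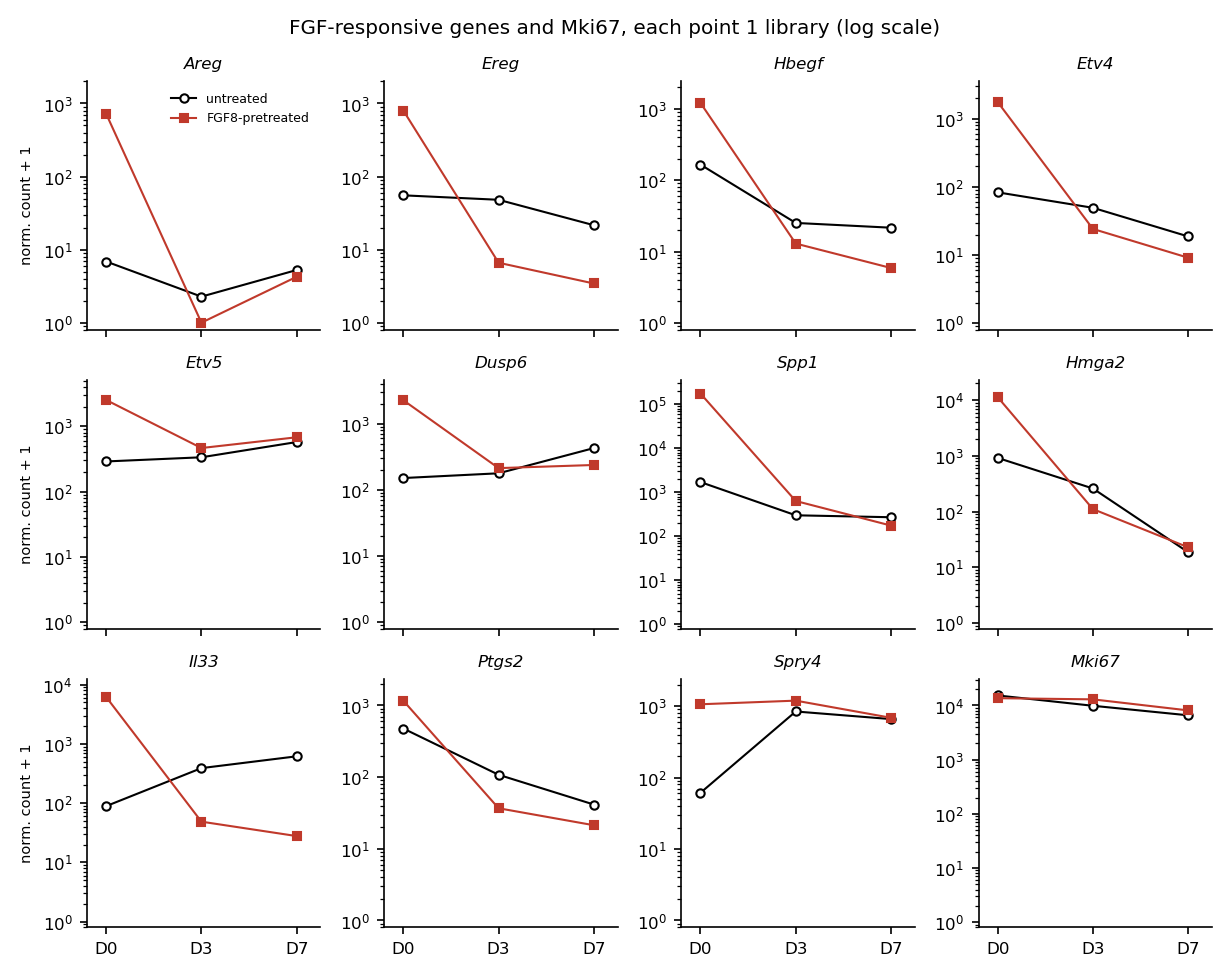
Normalized counts after adding 1 (log scale) of 11 genes chosen with values known and Mki67 at D0, D3 and the late point labelled D7. Each point is 1 library, in the FGF8 arm (red squares) or the untreated arm (black circles). Areg, Ereg, Hbegf, Etv4, Etv5, Dusp6, Spp1, Hmga2, Il33 and Ptgs2 are highest in FGF8_D0, while Spry4 holds 1060.0 and 1192 and Mki67 13628 and 12971 in the FGF8 pair.

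Other genes with the largest falls went down in both arms. Crabp1, which binds retinoic acid, went from 38806 to 21.8 normalized counts in the FGF8 pair, and from 2710.1 to 6.36 in the untreated pair. Bnc1, a zinc finger factor known from epithelial and mesothelial cells, went from 1196 to 0.702, and from 47.0 to 0 without FGF8. The chemokine gene Cxcl14 went from 1136 to 2.11, and the glutamine transporter gene Slc38a1 from 3090.4 to 6.32. Piezo2, a mechanically gated channel, held 1489 and 6.32 in the FGF8 pair and 3324 and 6.36 in the untreated pair. The matrix genes Thbs4 and Cilp had log2 changes of -8.57 and -8.53, against -5.89 and -7.89 in untreated cells. AI593442 was at 1461 in FGF8_D0 and at 0 in FGF8_D3, at least 694-fold lower, and at 13.2 and 0 in untreated cells. Ptchd1 and Lrrn3 switched off as well, from 1490.2 to 1.40 and from 1068 to 6.32. The interferon-inducible Gbp2b (from 1197 to 0) and the transcript Gm36582 (from 312 to 0) complete the genes that the size rules named on the off side, and Gbp2b was also near 0 in the later untreated libraries. Msln, a mesothelial marker, stood at 32.0 and 0 in the pair. All of these values rest on the day 0 libraries that stood apart.

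Prostaglandin genes went both ways. Indomethacin, which the induction medium held, inhibits the cyclooxygenase enzymes. Of 9 members that passed (of 12), 6 were lower at D3 and 3 higher, each by 2-fold or more, and the same counts held in the untreated pair. Ptgs2, the inducible cyclooxygenase, fell from 1165 to 35.8 normalized counts, with a log2 change of -2.14 in untreated cells. Ptgs1, the constitutive form, fell from 4985 to 248, and Pla2g4a, which releases arachidonic acid, fell by 3.73 on the log2 scale. Ptges and Ptges2, which make prostaglandin E2, had log2 changes of 2.08 and 2.99. Ptgis, which makes prostacyclin, fell by 2.63 on the log2 scale, and the receptor genes Ptgfr and Ptger4 had changes of -4.52 and -1.29.

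Matrix genes fell more often than they went up, outside the collagens. Of 28 matrix glycoprotein and remodeling genes that passed (of 30), 18 were at least 2-fold lower at D3 and 5 higher, with a median of -1.65 against -0.87 in the untreated pair. Fn1 (fibronectin) fell from 201673 to 21691 normalized counts, while its log2 change in untreated cells was -0.55. Timp3, a matrix-bound inhibitor of metalloproteinases, fell by 6.37 on the log2 scale. Dcn (decorin), a small leucine-rich proteoglycan, fell from 46078 to 2866, against a log2 change of -1.33. Timp1, an inhibitor of matrix metalloproteinases, fell from 4812 to 845 with a log2 change of 0.44 in untreated cells. Mmp11, a matrix metalloproteinase, fell by 4.55 on the log2 scale, and Grem1, a secreted BMP antagonist, went from 3766 to 39.3.

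Progenitor markers fell unevenly. Of 18 that passed (of 21), 10 were at least 2-fold lower at D3, 4 were higher and 4 lay within 2-fold, with a median of -1.30 against -0.97. Cd34, a surface sialomucin of adipose progenitors, fell from 10476 to 125 normalized counts, and from 15084 to 633 in untreated cells. Pi16, a marker of interstitial progenitors, fell from 542 to 4.21. Dlk1 (Pref-1), an inhibitor of adipogenesis, had a log2 change of -3.29 with FGF8 and of -3.09 without. Gata2, a transcription factor that holds back adipogenesis, fell by 3.01 on the log2 scale. Thy1 and Cd44, stromal surface glycoproteins, had log2 changes of -3.24 and -3.03, against changes of -0.69 and -1.12 in untreated cells. Pdgfra, the PDGF receptor that marks preadipocytes, held 9679.8 and 5840.1 in the FGF8 pair, within 2-fold, and 68261 and 20193 in the untreated pair. Of 20 contractile genes that passed (of 21), 9 were at least 2-fold lower and 2 higher. Ankrd1, a stretch-responsive gene, fell from 1509 to 33.7, while Myh11, a smooth muscle myosin, had a log2 change of 3.32.

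Genes of the ATF4 and unfolded protein response had medians of opposite sign in the 2 arms, a difference that was not tested. This response raises amino acid transport and synthesis when amino acids or protein folding are limiting. Of 24 members, 11 were at least 2-fold lower at D3 in the FGF8 pair and 2 higher, with a median of -0.79, whereas in the untreated pair 9 were at least 2-fold higher and 0 lower, with a median of 0.59. Asns (asparagine synthetase) went from 10988 to 5081 normalized counts in the FGF8 pair and from 1160.4 to 2979 in the untreated pair. Slc7a11, the cystine transporter, went from 2870.3 to 859 and from 120.4 to 616. Both genes were thus higher in FGF8_D0 than in untreated_D0. Trib3, a pseudokinase induced by ATF4, had log2 changes of -1.78 and 1.00 in the FGF8 and untreated pairs, and Chac1, which degrades glutathione, -2.78 and 0.67. Slc7a5, a transporter of large neutral amino acids, fell from 11106 to 2391 with FGF8 and had a log2 change of -0.17 without. Atf4 itself had a log2 change of -0.84.

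On the induction side, the genes with the largest increases were those of lipid handling. Gpd1, which makes the glycerol 3-phosphate backbone of triglycerides, had 0 counts in FGF8_D0 and 173366 normalized counts in FGF8_D3, at least 45139.6-fold higher. In the late FGF8 library it stood at 102739, and in the untreated libraries at 4.41, 71055 and 126889. Cd36, the fatty acid translocase, went from 0 to 54228, at least 14119.5-fold, and Cidec, a lipid droplet fusion protein, from 0 to 37194, at least 9684-fold. Adipoq (adiponectin) went from 0 to 33237 with FGF8 and from 1.47 to 21274 without. Plin1, the main lipid droplet coat protein, went from 3.84 to 18467, and Plin5, the coat protein of oxidative tissues, from 0 to 4501. Thrsp, a nuclear protein linked to lipogenesis, went from 1.28 to 19640.2. Lgals12, a galectin of lipid droplets, went from 0 to 9268, and Adig (adipogenin) from 0 to 4532.

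The same size rules named further genes. Slc36a2, a proton-coupled amino acid transporter known as a brown adipocyte surface protein, went from 0 to 9774 normalized counts in the FGF8 pair and from 4.41 to 4953 in the untreated pair. Car3, a carbonic anhydrase abundant in adipocytes, went from 0 to 9366. The aldehyde dehydrogenases Aldh1a7 and Aldh3b2 went from 0 to 6003 and 3690.1, and A530016L24Rik from 0 to 4874.

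Adipogenic transcription factors were mostly higher at D3. Of 23 that passed (of 25), 14 were at least 2-fold higher and 3 lower, with a median of 1.13 against 1.47 in the untreated pair. Pparg, the master regulator, went from 163 to 5339 normalized counts, with a log2 change of 5.03 (95% interval 4.78 to 5.30) against 3.75 in untreated cells. Cebpa, its partner in terminal differentiation, went from 122 to 17948, and Cebpb, which acts earlier, had a log2 change of 3.46. Mlxipl (ChREBP), the glucose-responsive activator of lipogenesis, went from 3.84 to 8067. Zfp423, a preadipocyte commitment factor, went from 7.68 to 1033. Klf5, which acts early in adipogenesis, fell by 2.20 on the log2 scale.

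Targets of the agents in the induction medium were described by agent. All 24 PPARG targets that passed (of 25) were at least 4-fold higher at D3, with a median of 6.93 (5.96 with genes at 0 counts in FGF8_D0 set to their lower bound) and 5.01 in the untreated pair. Fabp4, the adipocyte fatty acid binding protein, went from 178 to 334151 normalized counts, and Lpl (lipoprotein lipase) from 2025 to 193276. Of 19 glucocorticoid receptor targets, 13 were at least 2-fold higher and 1 lower, with a median of 1.82. Zbtb16, a zinc finger factor strongly induced by glucocorticoids, went from 0 to 1894 in the FGF8 pair and from 0 to 2297 in the untreated pair. Per1 and Klf9, 2 other glucocorticoid-responsive regulators, had log2 changes of 3.29 and 2.07, and Fkbp5, an inhibitor of the receptor, one of -0.15. Targets of cAMP and CREB went both ways, with 7 of 16 (of 18 listed) at least 2-fold higher, 6 lower and a median of -0.51, against 0.86 in the untreated pair. Of 10 thyroid hormone targets that passed (of 12), 6 were higher and 2 lower. Dexamethasone and IBMX had been removed 1 day before FGF8_D3 was taken.

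The starts of 3 genes of the on side are shown, Gpd1 and Adipoq because they rose from 0 and Igfbp3 because its day 0 level set the arms apart. Gpd1 lies at chr15:99615146-99615395, plus strand, Adipoq at chr16:22965036-22965285, plus strand and Igfbp3 at chr11:7164180-7164429, minus strand, with capitals as above:
Gpd1: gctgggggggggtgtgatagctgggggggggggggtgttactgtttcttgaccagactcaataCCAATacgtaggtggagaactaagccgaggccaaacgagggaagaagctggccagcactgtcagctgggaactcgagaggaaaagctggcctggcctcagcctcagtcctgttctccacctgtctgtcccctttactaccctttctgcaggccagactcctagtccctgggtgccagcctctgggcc
Adipoq: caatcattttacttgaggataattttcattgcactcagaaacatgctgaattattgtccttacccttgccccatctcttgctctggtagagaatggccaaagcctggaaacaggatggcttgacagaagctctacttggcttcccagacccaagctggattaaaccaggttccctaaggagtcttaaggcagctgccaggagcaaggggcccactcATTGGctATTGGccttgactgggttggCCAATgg
Igfbp3: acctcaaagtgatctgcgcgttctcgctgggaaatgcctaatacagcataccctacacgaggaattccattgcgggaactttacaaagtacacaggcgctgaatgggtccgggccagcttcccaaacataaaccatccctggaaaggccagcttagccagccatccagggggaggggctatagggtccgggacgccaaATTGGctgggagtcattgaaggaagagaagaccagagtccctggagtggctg
Gpd1 held a CCAAT box 187 bases before its start, Adipoq CCAAT boxes at 34, 27 and 7, and Igfbp3 one at 52. None of the 3 held the C/EBP letters in these 250 bases. Among 219 genes that switched on, 31.5% of windows held a CCAAT box, 8.68% the C/EBP letters, 2.74% the ETS letters and 12.8% a TATA box. The AP-1 letters were in 7.31% of these windows and the CRE in 1.37%. Their median GC content was 53.6%, against 56.8% over all 12655 windows and 55.6% for the 138 genes that switched off, and the GC box GGGCGG was in 32.4%, 50% and 42.0% of the same windows.

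Lipid and mitochondrial genes moved nearly as blocks. Of 36 genes of lipid uptake, synthesis and storage that passed (of 38), 31 were at least 2-fold higher and 0 lower, with a median of 4.46 against 3.35 in the untreated pair. Fasn (fatty acid synthase) and Scd1 (stearoyl-CoA desaturase) had log2 changes of 4.94 and 4.44. Dgat2, which completes triglyceride synthesis, went from 359.7 to 7243 normalized counts, and Elovl6, a fatty acid elongase, from 2265 to 2089.7, within 2-fold. Of 18 lipolysis genes, 17 were at least 2-fold higher, and Pnpla2 (adipose triglyceride lipase) and Lipe (hormone-sensitive lipase) had log2 changes of 7.10 and 8.78. Of 26 fatty acid oxidation genes, 25 were higher. Hadha, of the mitochondrial trifunctional protein, went from 3396 to 53158, while Cpt1a, the liver-type carnitine palmitoyltransferase, lay at 1984 and 2394. The muscle-type gene Cpt1b went from 0 to 102, at least 26.7-fold.

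All 23 TCA cycle genes were at least 2-fold higher at D3, with a median of 2.74 against 1.97 in the untreated pair. Cs (citrate synthase) had a log2 change of 3.88. Of 45 respiratory chain genes that passed (of 52), 43 were at least 2-fold higher and 0 lower, with a median of 2.21 against 1.47. Uqcrc1 (complex III) went from 2691 to 23111 normalized counts, Sdhb (complex II) from 2413 to 9817 and Cox4i1 (complex IV) from 8779.8 to 22017. The carrier protein Cycs (cytochrome c) had log2 changes of 5.68 in the FGF8 pair and 5.35 in the untreated pair. Of 24 cholesterol synthesis genes, 12 passed 2-fold upward with FGF8 and 2 without, with medians of 1.03 and 0.27. Hmgcs1, an early enzyme of the pathway, had log2 changes of 2.11 and 0.58 in the FGF8 and untreated pairs, and Insig1, a sterol-sensing brake on it, 3.38 and 2.82. Of 19 glycolysis genes, 11 were higher and 2 lower. Hk2 (hexokinase 2) and Pfkfb3 (a regulator of phosphofructokinase) had log2 changes of 3.09 and 4.64, whereas the lactate exporter Slc16a3 and the glucose transporter Slc2a1 had changes of -3.19 and -1.22.

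**Figure D4:**
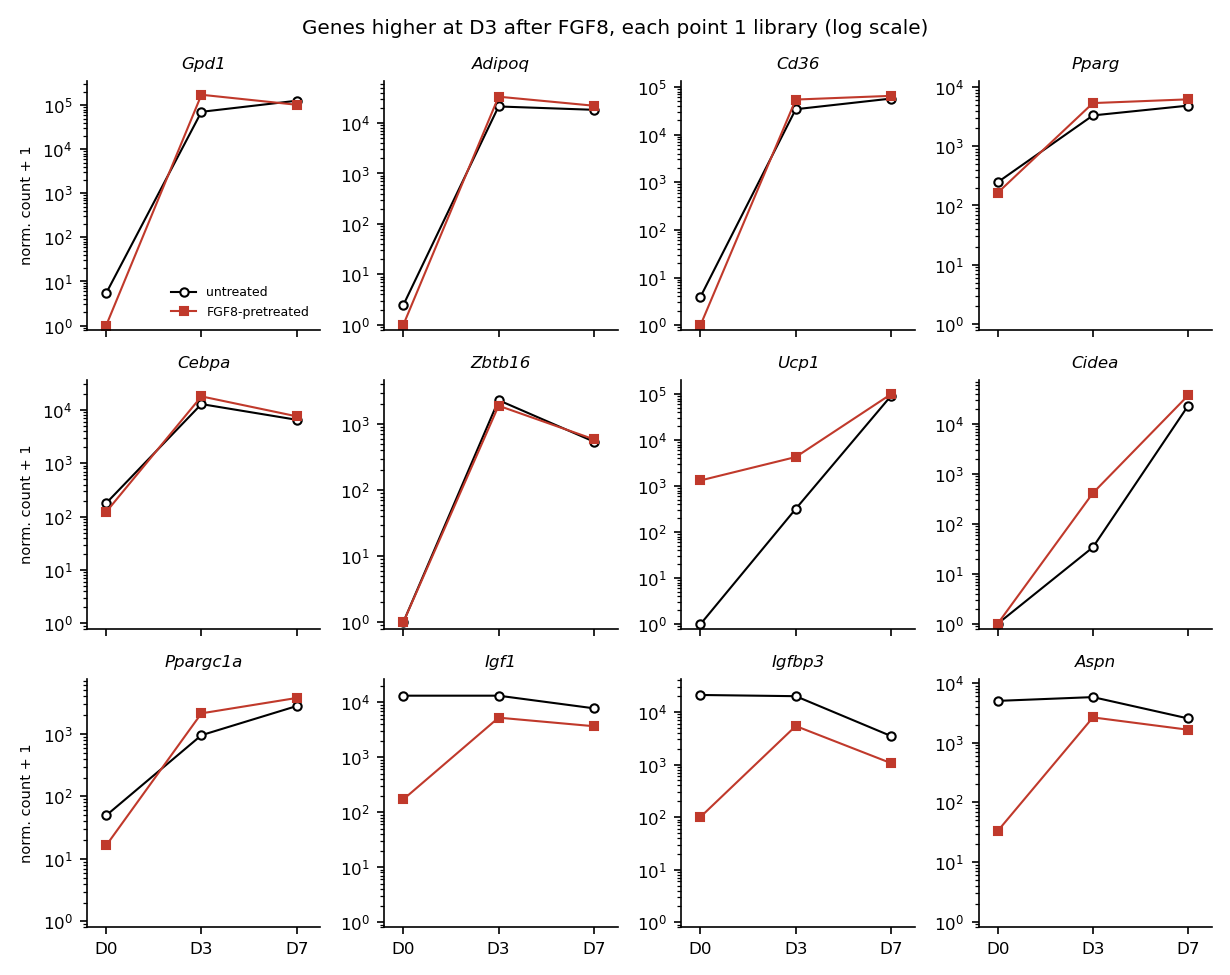
Normalized counts after adding 1 (log scale) of 12 genes higher at D3 in the FGF8 pair, at D0, D3 and the late point labelled D7, each point 1 library, in the FGF8 arm (red squares) and the untreated arm (black circles). Gpd1, Adipoq, Cd36, Zbtb16 and Cidea start at 0 in FGF8_D0, Ucp1 starts at 1328 with FGF8 and at 0 without, and Igf1, Igfbp3 and Aspn start at 170.3, 99.9 and 32.0 in FGF8_D0 against 13226, 21024 and 5010.3 in untreated_D0.

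Ucp1 was present before induction in the FGF8 arm and at 0 in untreated cells. It stood at 1328 normalized counts in FGF8_D0, 4287 in FGF8_D3 and 99587 in the late FGF8 library, against 0, 319 and 91306 in untreated cells. The log2 change in the FGF8 pair was 1.69 (95% interval 1.60 to 1.79), while in the untreated pair the gene was at least 72.5-fold higher. FGF8_D3 stood above untreated_D3, and the late libraries of the 2 arms lay within 2-fold of each other. Of 25 brown fat effector genes that passed (of 31), 18 were at least 2-fold higher at D3 and 3 lower, with a median of 3.28 against 2.85 in the untreated pair. Cidea, a lipid droplet protein of brown adipocytes, went from 0 to 416 and later 37734, against 0, 33.1 and 23469.9 in untreated cells. Cox7a1 and Cox8b, cytochrome c oxidase subunits of brown fat and muscle, went from 35.8 to 716 and from 0 to 261, in a pair where skeletal muscle markers summed to 38.4 and 237, with Des at 8.96 at D0 and 184 at D3 and Acta1 at 0 at D0 and 40.7 at D3, a part that was not tested. Adrb3, the adipocyte beta-adrenergic receptor, went from 0 to 2146. Dio2, the deiodinase that makes T3, fell from 60.2 to 12.6 in the FGF8 pair, with a log2 change of -6.43 in the untreated pair.

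Of 20 brown fat transcriptional regulators that passed (of 21), 13 were at least 2-fold higher and 2 lower at D3. Ppargc1a (PGC-1alpha), the coactivator of mitochondrial genes, went from 15.4 to 2129.7 normalized counts, with log2 changes of 7.02 and 4.27 in the FGF8 and untreated pairs. Prdm16, a determinant of brown fat identity, went from 188 to 1397, and Esrra, an activator of oxidative metabolism, had a log2 change of 4.81. Ppara, the fatty acid sensor, had one of 7.57. Zic1, a marker of the brown lineage, was at 136 in FGF8_D0 and 0 in FGF8_D3, and at 149.8 and 0 in untreated cells. These values, too, rest on the day 0 libraries that stood apart.

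The FGF receptor and co-receptor list was mostly higher at D3 in both pairs. Of 5 genes that passed (of 6), 4 were at least 2-fold higher and 0 lower, against 3 and 0 in the untreated pair. The 4 were Fgfr2, Fgfr3 (log2 change 1.32), Fgfrl1 (2.97) and the co-receptor gene Klb. Fgfr4, which did not pass the level filter, had a log2 change of -2.275. Fgfr1, an FGF receptor known to take up FGF8 signals in preadipocytes, lay within 2-fold at 7921 and 5260.3 normalized counts. Fgfr2 went from 149.8 to 913 normalized counts, with a log2 change of 0.95 in untreated cells. Klb, the co-receptor for FGF21, went from 1.28 to 2717, and from 1.47 to 1391 in untreated cells. Fgf21, its endocrine ligand, went from 81.9 to 223, against 2.94 and 157.

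A further set of genes rose in the FGF8 pair from a low day 0 level that untreated cells did not show. Igfbp3, which binds insulin-like growth factors in the extracellular space, stood at 99.9, 5403 and 1063 normalized counts at D0, D3 and the late point in the FGF8 arm, against 21024, 19942 and 3483 in the untreated arm. Igf1 stood at 170.3, 5265 and 3676 in the FGF8 arm and at 13226, 13226 and 7789.7 in the untreated arm. At D3 both genes were still below untreated_D3. Aspn (asporin), a small leucine-rich proteoglycan, went from 32.0 to 2648, against 5010.3 and 5797. Clec3b (tetranectin), a plasminogen-binding lectin of the stroma, went from 1.28 to 391, against 1362 and 2208. Gdpd2, a glycerophosphodiester phosphodiesterase, went from 0 to 168, at least 43.7-fold, against 433 and 463. Fat4, an atypical cadherin, went up from 84.5 to 730.0 in the FGF8 pair and fell from 12036 to 1867 in the untreated pair.

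Other genes of this kind went up in both arms, from a lower start after FGF8. Aoc3, an amine oxidase of adipocytes, went from 20.5 to 8117 normalized counts with FGF8, against 2155 and 8105 without. Kbtbd11, an adaptor of ubiquitin ligases, went from 1.28 to 4479.8, against 110.2 and 2529. Fmo1, a flavin-containing monooxygenase, went from 3.84 to 2725, and Grk3, a kinase of G protein-coupled receptors, from 0 to 1160.3. Egfl6, a secreted EGF-domain protein, is in the group by difference alone: it was at 19.2 in FGF8_D0 and 0 in FGF8_D3, and it fell from 3359 to 0 in untreated cells.

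Among 13 genes of the IGF axis that passed (of 14), 8 passed 2-fold upward and 3 downward with FGF8, against 3 higher and 2 lower in the untreated pair. Of 19 collagen genes, 9 were higher and 4 lower in both pairs. Col6a1, a chain of microfibrillar collagen VI, went from 6179.6 to 42420.2 normalized counts, with a log2 change of 0.54 in untreated cells. Of 19 adipokine genes that passed (of 21), 13 were at least 2-fold higher and 4 lower, with a median of 3.48 against 1.12. Retn (resistin) went from 0 to 1896 and Angptl4, an inhibitor of lipoprotein lipase, from 230.4 to 9324. The TGF-beta and BMP pathway list (26 of 29 passed) held 8 higher and 8 lower, and the WNT ligand and antagonist list (12 of 23 passed) 4 higher and 5 lower.

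Interferon-stimulated genes also had medians of opposite sign in the 2 pairs, and this difference was not tested either. These genes encode antiviral proteins induced by interferon signalling. Of 42 that passed (of 44), 12 passed 2-fold upward and 4 downward with FGF8, with a median of 0.31, in a pair where 24.1% of all genes passed upward and 22% downward. In the untreated pair 1 was higher and 26 lower, with a median of -1.12, where 15.5% of all genes were lower. Mx1, a dynamin-like antiviral GTPase, went from 74.3 to 469 normalized counts in the FGF8 pair, and fell from 2243 to 1056 in untreated cells. Rsad2 (viperin) went from 252 to 1259, and from 4619.6 to 2133. In both genes FGF8_D0 was lower than untreated_D0, and FGF8_D3 was below untreated_D3. Xaf1, an interferon-inducible apoptosis factor, went the other way, with a log2 change of -2.94 with FGF8 and of -3.82 without. Of 22 genes of the p200, guanylate-binding protein and immunity-related GTPase families that passed (of 25), 10 were higher and 3 lower, against 3 and 10 in the untreated pair. Iigp1, an immunity-related GTPase, went from 960.2 to 4735, and from 20989 to 8029.6 in untreated cells. Of 17 antigen presentation genes that passed (of 19), 6 were higher and 0 lower. Tap1, the peptide transporter, went from 681 to 2081, while B2m, the light chain of MHC class I, lay at 20989 and 22369.

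Of 19 chemokine and cytokine genes that passed (of 27), 11 were at least 2-fold lower at D3 and 4 higher, with a median of -1.46 against -0.51. Ccl2, a monocyte attractant, went from 2674 to 255 normalized counts with FGF8, against 2115 and 959.6 without. Cxcl9, an interferon-induced T cell attractant, went up from 25.6 to 1172, with a log2 change of 1.16 in the untreated pair. Of 18 complement and acute-phase genes that passed (of 22), 12 were at least 2-fold higher in each pair. C3, the central complement component, went from 48.6 to 48136, and Cfd (adipsin), the adipocyte protease of the alternative pathway, from 0 to 2163. Saa3, an acute-phase apolipoprotein, went from 2.56 to 5281.

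Of 40 DNA replication genes, 31 lay within 2-fold, 5 were higher and 4 lower, with a median of -0.41 against -0.36 in the untreated pair. Of 45 mitosis genes, 34 lay within 2-fold, with a median of -0.37 against -0.73. Mki67, the nuclear antigen of cycling cells, held 13628 normalized counts in FGF8_D0 and 12971 in FGF8_D3, a log2 change of -0.07 (95% interval -0.11 to -0.04). Top2a, the topoisomerase of dividing cells, had a log2 change of -1.51 with FGF8 and of -1.28 without. Of 18 CDK inhibitor and p53 target genes, 6 were higher and 2 lower. The 19 genes that the study itself chose as an FGF response signature are not independent evidence of a direction, since they were chosen on FGF-treated white preadipocytes. Of 17 that passed, 9 were at least 2-fold lower and 5 higher at D3, with a median of -1.29 against -1.0. The list mixes genes higher in FGF8_D0 than in untreated_D0, such as Spp1, with genes lower there, such as Igfbp3.

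**Figure D5:**
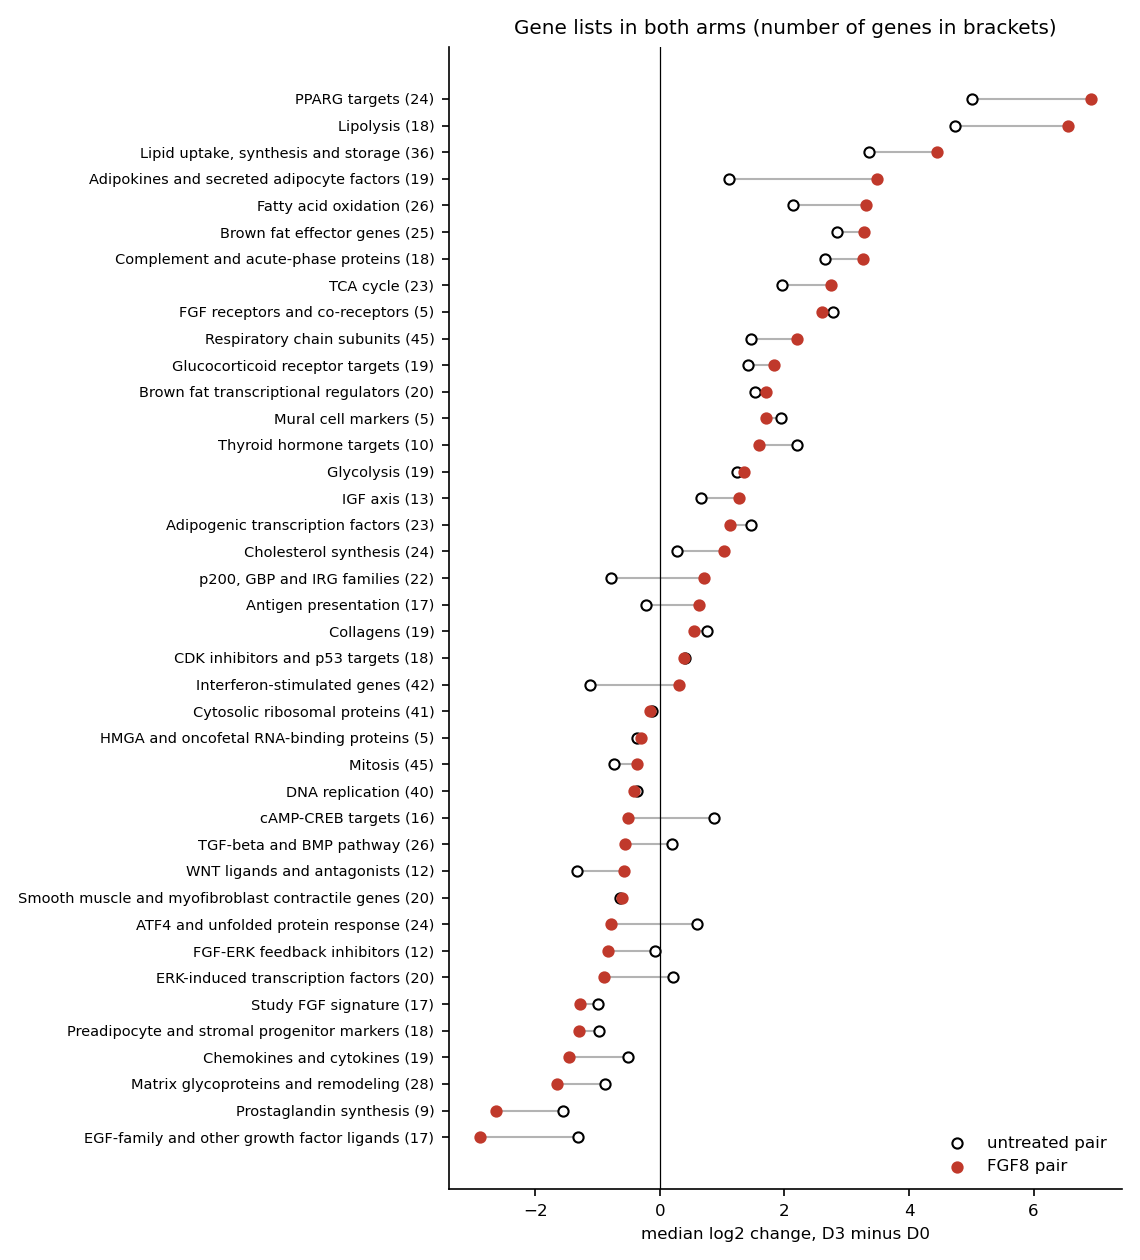
Median log2 difference between D3 and D0 over the genes of each list that passed in the FGF8 pair, in the FGF8 pair (red) and the untreated pair (open circles), with the number of genes of the FGF8 pair in brackets. Lists with at least 5 genes are shown. PPARG targets (6.93) and lipolysis genes (6.55) have the highest medians and growth factor ligands (-2.90) the lowest in the FGF8 pair, and the interferon and ATF4 lists lie on opposite sides of 0 in the 2 pairs.

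To set the changes against an error estimate, a model was fitted to all 6 libraries with day and arm as terms, using edgeR's quasi-likelihood test and Benjamini-Hochberg adjustment at 0.05. Here the 2 arms stand in for replicates of a day, so that a change which differs between arms counts as error, and 2 residual degrees of freedom remained. Of 14569 genes tested, 3823 (26.2%) were higher at D3 than at D0 and 2884 (19.8%) lower. Of the lists, 24 of 25 PPARG targets, 15 of 18 lipolysis genes, 22 of 23 TCA cycle genes, 25 of 26 fatty acid oxidation genes and 40 of 45 respiratory chain genes passed as higher and 0 as lower. Of the lists linked to ERK, 3 of 12 feedback inhibitors, 3 of 20 ERK-induced transcription factors and 7 of 17 growth factor ligands passed as lower. In each list 1 passed as higher, and of all genes tested 19.8% passed as lower. Of the mitosis genes 20 of 45 passed as lower and 4 as higher, and of the DNA replication genes 14 of 40 as lower and 8 as higher. For Gpd1 the fitted log2 difference was 15.77 (adjusted p = 0.0027 in edgeR), and for Pparg it was 4.43 (adjusted p = 0.0032 in edgeR). For Dusp6 it was -2.17 (adjusted p = 0.2 in edgeR) and for Il33 -5.19 (adjusted p = 0.24 in edgeR), neither of which passed. These p-values measure the spread between single libraries of 2 arms, and the 3823 and 2884 genes include those that set the day 0 libraries apart, such as Rpl29 (adjusted p = 0.0019 in edgeR).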

How the data were processed

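RNA-seq libraries of immortalized brown preadipocytes were made, 1 per condition, and sequenced as paired ends by the study. Per the labels and the study's methods, the authors trimmed reads with Trim Galore, aligned them to GRCm39 (mm39) with HISAT2, counted reads per gene with featureCounts and deposited raw read counts per gene symbol. The library kit marks strand, but the strand setting of the counting is not given in the sources used here.

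From the deposited counts, median-of-ratios size factors over the 6 libraries were computed, and genes averaging 20 normalized counts or more in a pair were compared (Python 3.11.15, scipy 1.17.1). A day effect across arms was tested with edgeR 4.0.16 (TMM factors, filterByExpr, quasi-likelihood test) in R 4.3.3, with DESeq2 1.42.0 as an alternative. Scripts were tested on simulated data. Genes were named by fixed rules: the 15 largest changes per direction at a mean of at least 100, the 10 highest genes per switch direction, the 10 per direction whose change differed most between arms, Ucp1, and members of 44 gene lists. The members, lists, motifs and shown promoters were chosen with earlier results of these data known. Alternatives covered scaling, pseudocount, level filters, libraries and tool. Some named genes are not reported here. Intervals and floors cover counting error only.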

Additional observations from a re-analysis of the deposited data

Results flagged for a closer look

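Among the named genes and list members, 16 moved at least 2-fold in opposite directions in the FGF8 pair and in the untreated pair, with 1 library at each point, and were picked for that. The differences were not tested. The values below are the log2 change of the FGF8 pair minus that of the untreated pair. Of these, 7 fell with FGF8 pretreatment and went up without: Il33 (-9.12), the cystine transporter gene Slc7a11 (-4.08), the stress-response factor Atf3 (-3.69), the VEGF receptor gene Flt1 (-3.58), Trib3 (-2.78), Mthfd2 of mitochondrial folate metabolism (-2.61) and Asns (-2.47). The other 9 went up with FGF8 pretreatment and fell without. They were the cadherin gene Fat4 (5.78), the secreted WNT antagonist gene Sfrp4 (5.12), the BMP antagonist gene Chrdl1 (3.87), the interferon-inducible genes Mx1 (3.73), Iigp1 (3.69), Cmpk2 (3.45), Rsad2 (3.43) and Gbp5 (2.23), and Fndc1 (3.44).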

How the results depend on the processing

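All 558 named genes that passed 2-fold kept their sign under TMM factors, total counts, size factors of the pair, size factors without the 100 highest genes and pseudocounts of 0.5 and 5. This was given by the choice of genes past 2-fold and is no separate support. The largest shift of the all-gene median was -0.21 (total counts), and a pseudocount cannot reverse a sign. The balance of directions depended on scaling: with total counts 2721 genes were at least 2-fold higher and 3537 lower in the FGF8 pair (43.5% higher, against 52.2%). Without a level filter (18262 genes), 4914 genes were at least 2-fold higher and 4476 lower in the FGF8 pair. In edgeR, 1671 genes passed as lower without the arm as a block, and with the 4 libraries of D0 and D3 alone 2287 passed as higher and 1607 as lower. Leaving out 1 library at a time gave 926 to 4550 genes higher and 288 to 3904 lower, with the fewest without FGF8_D3 (926 and 288). Without untreated_D3 the counts were 1879 and 1040, without untreated_D7 2510 and 2053, and without FGF8_D7 2492 and 2027. DESeq2 called 3565 higher and 3351 lower. The labels give no replicate numbers, so no replicate block was fitted, and the arm as a block was what linked libraries of different days. A low count limits single genes: 1 count was worth 1.28 normalized counts in FGF8_D0 and 0.702 in FGF8_D3.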
